A study of Mus musculus with 74 samples.

Results

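The variable (V) gene segments of the immunoglobulin heavy chain (Ighv) and of the kappa light chain (Igkv) were followed through the H3K9me3 peak lists of mouse embryos cloned by SCNT (somatic cell nuclear transfer). Members were the genes that GENCODE vM21 types as IG_V_gene and whose symbol starts with Ighv or Igkv. There were 213 of them among 55413 annotated genes on the 19 autosomes, X and Y. The 113 Ighv segments lay on chromosome 12 (chr12:113578504-116000461, mm10), all on the minus strand, in a span of 2.42 Mb. The 100 Igkv segments lay on chromosome 6 (chr6:67555497-70704177), 62 on the minus and 38 on the plus strand, in a span of 3.15 Mb. Segments were 294 to 796 bases long, and together they made up 2.11% of the Ighv span and 1.80% of the Igkv span.

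A V segment encodes most of the antigen-binding domain of an antibody chain. In developing B cells the RAG recombinase cuts beside a V segment and joins it to a D and a J segment (heavy chain) or to a J segment (kappa chain), so that each B cell uses 1 V segment out of a long array. H3K9me3, trimethylation of lysine 9 of histone H3, is a mark of heterochromatin and is known for covering repeats and clustered gene families in cells that do not use them. Neither cumulus cells nor early embryos rearrange these loci.

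Native ChIP-seq for ultra-low input was run for H3K9me3 on donor cumulus cells (CC), SCNT embryos at 6 and 14 h post activation (hpa), SCNT 2-cell, 4-cell and 8-cell embryos and morulae, the ICM (inner cell mass) and TE (trophectoderm) of SCNT blastocysts, and fertilized zygotes at pronuclear stage 5 (PN5). Cumulus cells and recipient oocytes came from superovulated B6D2F1 females, 8 to 10 weeks old, reconstructed oocytes were activated with strontium chloride and cytochalasin B, and, by the labels, fertilized embryos came from C57BL/6 females mated with C57BL/6 males (C57BL/6j in the methods). The 74 libraries (41 precipitates and 33 inputs) had been merged to 1 peak list per group, so no value has a replicate error, no test between groups was possible, and the cell labels could not be checked against marker expression. The labels list PN5 libraries with inputs of their own beside the SCNT libraries, whereas the methods of the study take PN5 from an earlier publication, so whether the source differed is not settled. Strain, any difference in source and type of embryo cannot be told apart in comparisons with PN5. A segment was called marked where peaks covered at least 50% of its bases. Intervals are 95% intervals (Wilson for shares) and cover counting error only, and since neighbouring segments can lie in the same peak they are too narrow.

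The sequences that make these segments recognisable are shown for the Ighv segments marked in the most lists, for members of the same locus that were marked in none and for the Igkv exceptions. Each runs 5′ to 3′ on the segment's own strand and was read from GRCm38 (mm10). The recombination signal starts at the first base after the annotated segment. Capitals mark the heptamer (first 7 bases) and the nonamer (last 9 bases), and the spacer between them is 23 bases in Ighv and 12 in Igkv.
Ighv8-8 (chr12:115294023-115294061, minus): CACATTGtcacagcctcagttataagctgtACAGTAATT
Ighv1-26 (chr12:114788333-114788371, minus): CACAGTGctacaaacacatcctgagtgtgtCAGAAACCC
Ighv1-34 (chr12:114851151-114851189, minus): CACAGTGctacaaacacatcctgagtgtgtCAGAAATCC
Ighv1-7 (chr12:114538456-114538494, minus): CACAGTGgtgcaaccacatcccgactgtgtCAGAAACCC
Ighv5-6, marked in no list (chr12:113625467-113625505, minus): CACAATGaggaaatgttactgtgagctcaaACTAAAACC
Ighv1-84, marked in no list (chr12:115980663-115980701, minus): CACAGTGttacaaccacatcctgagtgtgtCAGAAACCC
Igkv3-3 (chr6:70687535-70687562, plus): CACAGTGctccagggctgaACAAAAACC
Igkv9-124 (chr6:67942046-67942073, minus): CACAGTGatacaaattataACATAAACC
Gene identifiers are ENSMUSG00000104452.1 (Ighv8-8), ENSMUSG00000094546.1 (Ighv1-26), ENSMUSG00000094478.1 (Igkv3-3) and ENSMUSG00000096632.2 (Igkv9-124). Ighv8-11, which was marked in 8 lists, carries the same signal as Ighv8-8, letter for letter. Of the members, 81 Ighv (71.7%) and 84 Igkv (84.0%) had the heptamer CACAGTG at this position, and 105 Ighv and 97 Igkv had one that starts with CAC. The nonamer ACAAAAACC followed in 3 Ighv and 32 Igkv segments.

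Promoters (250 bases before to 50 bases after the annotated start) are shown for Ighv8-8, which was marked in more lists than any other member, and for Igkv3-3, which was marked in the most lists among the Igkv segments. Capitals mark the octamer, the B cell promoter element ATGCAAAT, which reads ATTTGCAT on the other strand.
Ighv8-8 (chr12:115294455-115294754, minus): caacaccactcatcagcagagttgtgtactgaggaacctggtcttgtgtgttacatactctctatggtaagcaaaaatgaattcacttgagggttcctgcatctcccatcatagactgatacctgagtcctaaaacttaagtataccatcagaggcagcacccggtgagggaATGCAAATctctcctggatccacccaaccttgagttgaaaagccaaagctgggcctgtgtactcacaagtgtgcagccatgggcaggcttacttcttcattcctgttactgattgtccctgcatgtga
Igkv3-3 (chr6:70686696-70686995, plus): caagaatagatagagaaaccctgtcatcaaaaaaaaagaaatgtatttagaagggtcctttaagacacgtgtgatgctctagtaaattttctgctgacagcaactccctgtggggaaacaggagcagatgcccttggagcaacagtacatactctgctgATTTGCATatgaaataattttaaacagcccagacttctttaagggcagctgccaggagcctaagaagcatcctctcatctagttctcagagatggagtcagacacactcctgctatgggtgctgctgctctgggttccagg
The octamer starts 78 bases before the start of Ighv8-8 and 91 bases before that of Igkv3-3. On either strand it was found in 91 of the 113 Ighv promoters (80.5%) and in 73 of the 100 Igkv promoters (73.0%), beside 1.74% of 32851 RefSeq promoters of the same length. The 300-base windows of Ighv8-8 and Ighv8-11 were identical at 260 positions.

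The Ighv segments were densely marked in donor cells and the Igkv segments were not. In CC 91 of 113 Ighv segments were marked (80.5%, interval 72.3 to 86.8%), and 78 lay inside peaks over their whole length. The count was 72 at 6 hpa (63.7%, 54.5 to 72.0%) and 65 at 14 hpa (57.5%, 48.3 to 66.2%). These 3 lists stood above the other 7 as deposited, but for 14 hpa this depended on the setting. With all lists cut to the same covered length, 25 segments were marked at 14 hpa and 32 in 2-cell embryos. With peaks of at least 3-fold enrichment there were 15 at 14 hpa, 10 in 2-cell and 15 in 4-cell embryos. With −log10 q of at least 2 there were 52 at 14 hpa and 24 in 2-cell embryos.

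From the 2-cell stage on, fewer than 1 in 3 Ighv segments was marked. There were 33 in 2-cell embryos (29.2%), 24 in 4-cell embryos (21.2%), 27 in 8-cell embryos (23.9%) and 31 in morulae (27.4%), and the intervals of these 4 shares overlapped one another. In blastocysts 10 segments were marked in ICM (8.85%, 4.88 to 15.5%) and 11 in TE (9.73%, 5.52 to 16.6%). PN5 had 7 marked segments (6.19%, 3.03 to 12.2%), and 105 of its 113 Ighv segments held no peak base.

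Over all annotated genes the marked share was 8.72% in CC, 7.80% at 6 hpa, 8.29% at 14 hpa, 5.64% in 2-cell, 6.07% in 4-cell and 6.03% in 8-cell embryos, 5.70% in morulae, 4.36% in ICM, 4.13% in TE and 3.96% in PN5. Ighv segments exceeded this background in every list up to the morula and in ICM and TE, where it lay below the segments' interval, and the PN5 interval included it. Genes as short as the segments were marked more often than all genes, 13.7% of 8124 in CC, 14.9% at 6 hpa and 11.8% in 2-cell embryos, still below the Ighv shares of those lists. In ICM, TE and PN5 the short genes (7.35%, 7.61% and 6.27%) fell inside the interval of the Ighv segments.

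**Figure D1:**
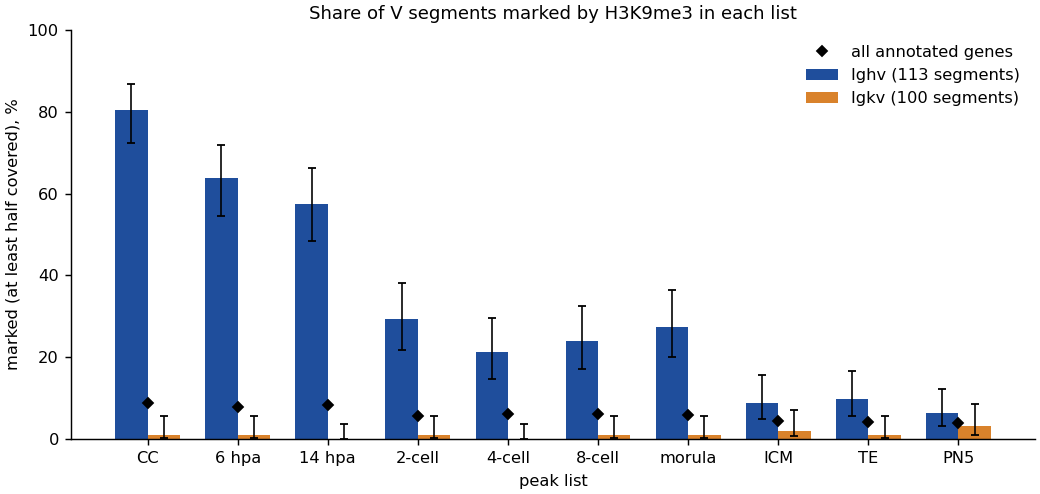
Share of V segments marked (at least 50% of their bases in peaks, y axis in %) in each of the 10 lists (x axis); bars show Ighv and Igkv with Wilson 95% intervals and diamonds all annotated genes. Ighv stands at 80.5% in CC and 6.19% in PN5, and Igkv never passes 3%.

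Igkv segments were close to free of called peaks in all 10 lists. The number marked was 1 in CC, at 6 hpa, in 2-cell and 8-cell embryos, in morulae and in TE, 2 in ICM, 3 in PN5 and 0 at 14 hpa and the 4-cell stage (0 to 3.70% for a count of 0 in 100), below the all-gene share in each list. Of the 100 segments 92 were marked in none. The 8 exceptions differed from list to list. Igkv9-124 was covered over 83.3% of its length in CC and 100% at 6 hpa and had no peak base elsewhere. Igkv3-3, near the J side, was covered over 88.3% in 8-cell embryos, 97.3% in ICM, 93.5% in TE, 28.01% in 4-cell embryos, 5.43% in PN5 and in no other list. The remaining exceptions held the mark in 1 list each: Igkv1-131 in 2-cell embryos, Igkv2-112 in morulae (94.6%), Igkv1-35 in ICM (55.7%), and Igkv3-12 (100%), Igkv3-4 (94.1%) and Igkv3-2 (74.8%) in PN5. Of the 8, Igkv3-2, Igkv3-3, Igkv3-4 and Igkv3-12 belong to the Igkv3 family at the J end of the locus. The outermost segments, Igkv3-1 at the J end and Igkv2-137 at the far end, were marked in none, and Igkv2-137 was covered over 35.1% in morulae. No segment of the large Igkv4 family (26 segments) had a peak base in any list, and the same was true of the Igkv5, Igkv8, Igkv12 and Igkv14 families.

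The mark of the heavy chain array was not confined to the segments. In CC, peaks covered 61.6% of the Ighv span (59.7 to 63.5%), beside 11.8% of the 1 Mb on its J side, 4.85% of the 1 Mb on its far side, 12.7% of chromosome 12 and 9.63% of the genome. At 6 hpa 19.9% of the span was covered and at 14 hpa 34.0%. It was 9.64% in 2-cell, 7.42% in 4-cell and 9.11% in 8-cell embryos, 16.0% in morulae, 10.8% in ICM, 10.5% in TE and 6.66% in PN5. From the 2-cell stage on the span was thus within 2-fold of chromosome 12 as a whole, which had 6.32% in 2-cell embryos, 9.34% in morulae, 7.32% in ICM and 5.51% in PN5. The Igkv span, of nearly the same GC content (38.7% against 39.2%), was covered over 8.06% in CC, 5.01% at 6 hpa, 10.97% at 14 hpa, 5.31% in 2-cell embryos, 9.79% in morulae, 9.46% in ICM and 6.02% in PN5.

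Because peak coverage varied with base composition, 1-kb windows of the spans were set beside all windows of the genome in the same GC class. Of the Ighv windows with a GC of 40 to 45%, 68.3% were at least 50% covered in CC, against 10.03% of the genome's windows in that class. The values were 28.01% and 4.37% at 6 hpa, 11.6% and 4.18% in 2-cell embryos, 13.0% and 6.40% in ICM, and 8.12% and 4.31% in PN5. Igkv windows of the same class had 8.97% in CC and 11.3% in ICM. In this class Ighv windows were marked more often than the genome in each of these lists, by the widest margin in CC.

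**Figure D2:**
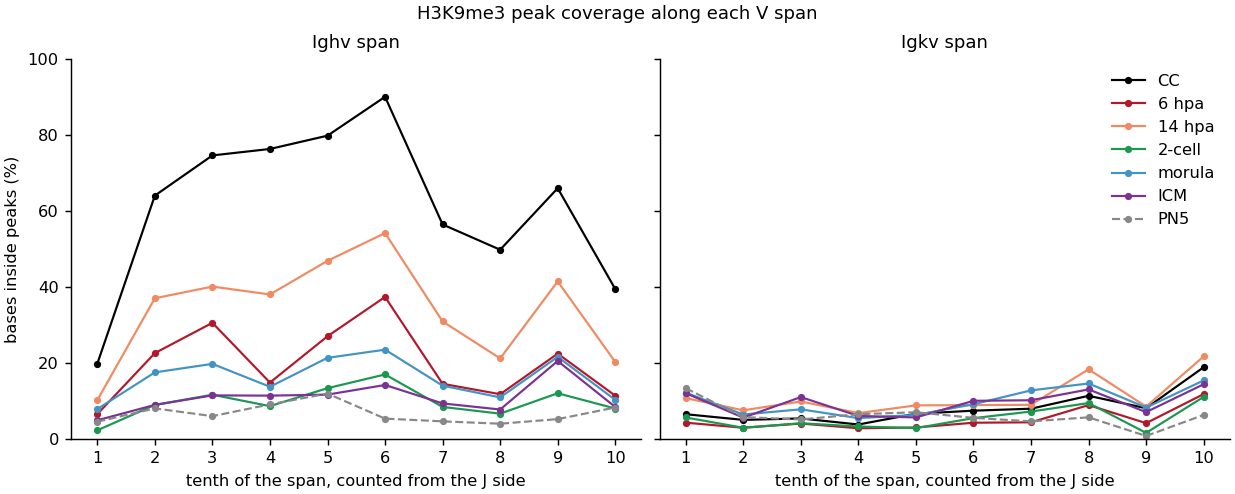
Bases inside peaks (y axis, %) in 10 equal parts of the Ighv (left) and Igkv (right) span, counted from the J side (x axis), for 7 of the 10 lists. In CC part 1 of Ighv holds 19.8% and part 6 holds 90.1%, whereas no part of Igkv passes 22%.

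Along the array coverage was sparser next to the D and J segments than farther in. Of 10 equal parts of the Ighv span counted from the J side, part 1 was covered over 19.8% in CC, part 2 over 64.04%, part 6 over 90.1% and part 10 over 39.4%. At 6 hpa part 1 had 6.47% and part 6 had 37.3%, and at 14 hpa these were 10.2% and 54.2%. The families, too, are sorted along the array. The 19 segments nearest to J were the 10 Ighv5 and 9 Ighv2 segments, and 5 of them were marked in CC, 5 at 6 hpa and 6 at 14 hpa, 2 in 2-cell embryos and in morulae, and 0 in the other lists. Of the next 31 segments, which hold the Ighv3, Ighv6, Ighv7, Ighv9, Ighv11 and Ighv14 families among others, 30 were marked in CC, 21 at 6 hpa and 18 at 14 hpa, with 7 in 2-cell embryos. Of the 63 farthest from J, 53 of them Ighv1 and 8 of them Ighv8, 56 were marked in CC, 46 at 6 hpa and 41 at 14 hpa, 24 in 2-cell and 8-cell embryos, 23 in morulae, 8 in ICM and 9 in TE. Family and position cannot be told apart here. The median GC of the 3 groups was 47.7%, 45.4% and 49.4%.

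**Figure D3:**
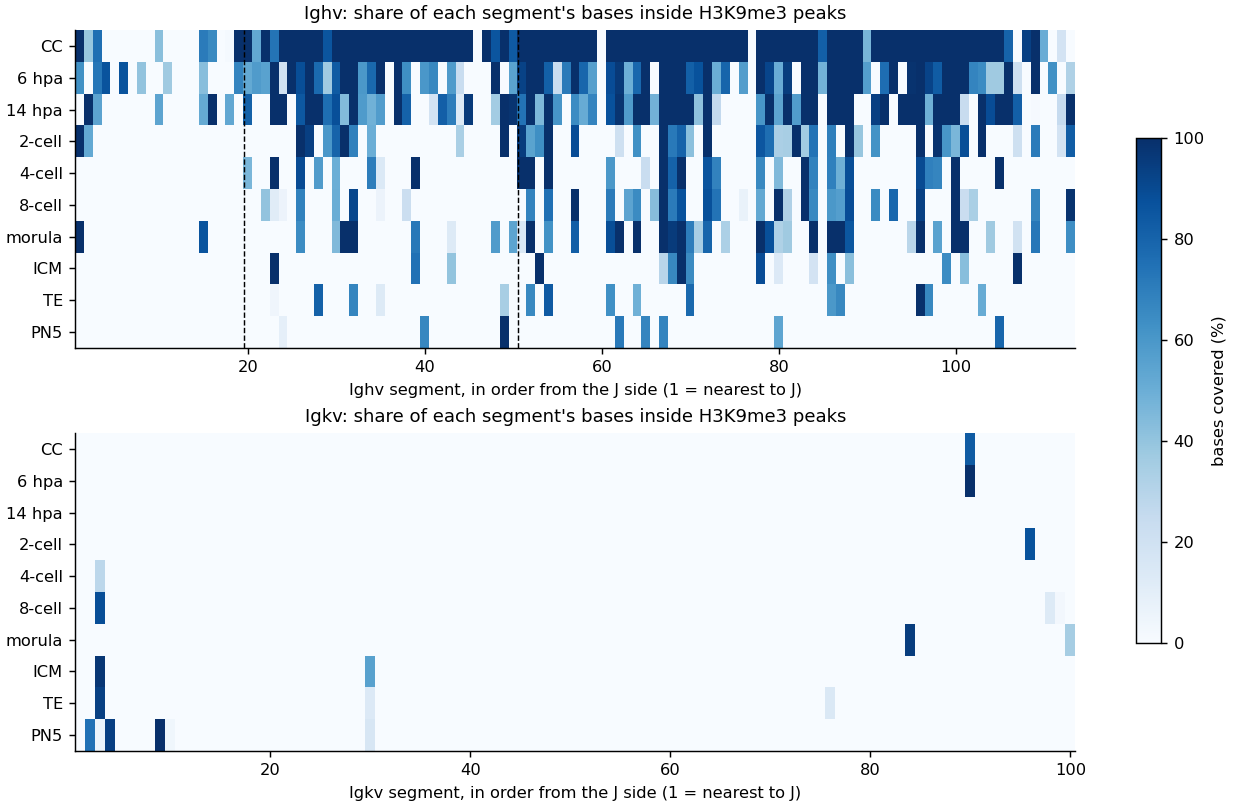
Share of each segment's bases inside peaks (colour, 0 to 100%) for every Ighv (top) and Igkv (bottom) segment in order from the J side (x axis) in each list (rows). Dashed lines set off the 19 Ighv2 and Ighv5 segments and the 63 segments farthest from J; the CC row is nearly filled to the right of the first line.

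Families differed in the number of lists in which their segments were marked. All 9 Ighv8 segments were marked in CC, 7 at 6 hpa and 14 hpa, 6 in 2-cell embryos, 4 in 4-cell embryos, 5 in 8-cell embryos, 4 in morulae, 2 in ICM and 3 in TE, and a median Ighv8 segment was marked in 5 lists. The 53 Ighv1 segments, the largest family, had 46 marked in CC, 38 at 6 hpa and 34 at 14 hpa, 18 in 2-cell embryos, 15 in 4-cell embryos, 19 in 8-cell embryos and in morulae, 5 in ICM and 6 in TE, with a median of 4 lists. Ighv6, beside Ighv1 on its J side, had 4 of 5 marked in CC and 1 at 6 hpa and 14 hpa. Ighv3 had 6 of 6 in CC, 4 at 6 hpa and 14 hpa and 0 in 2-cell embryos. Ighv9 had 4 of 4 in CC and at 6 hpa, 2 at 14 hpa and 3 in 2-cell embryos. Ighv7 had 4 of 4 in CC and 3 at 6 hpa, and Ighv14 had 4 of 4 in both. In PN5 the marked segments were 5 Ighv1, 1 Ighv8 and 1 Ighv9.

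**Figure D4:**
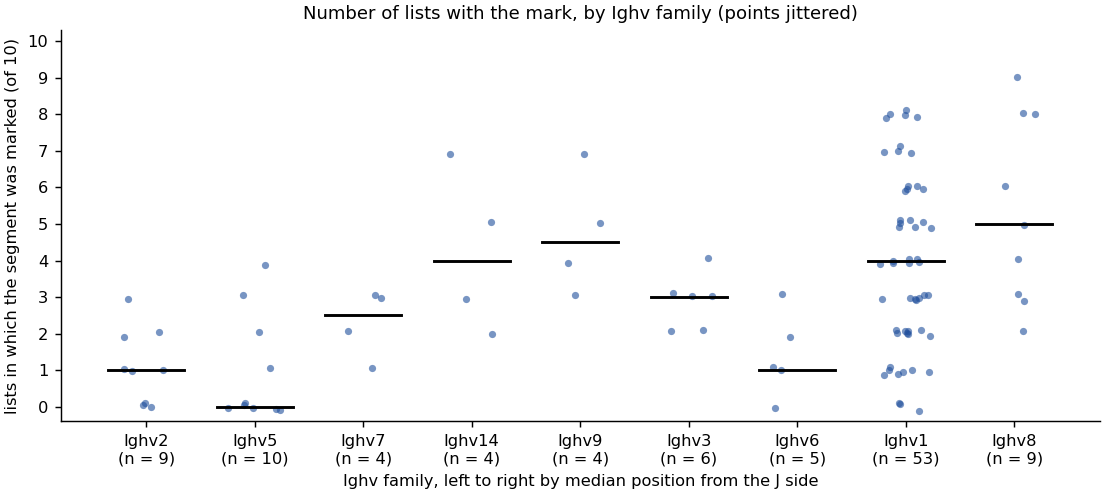
Number of lists (of 10, y axis) in which each Ighv segment was marked, by family (x axis, families of at least 4 segments ordered by median position from the J side); points are segments with a small jitter and bars are medians. The medians run from 0 in Ighv5 to 5 in Ighv8, and single Ighv1 segments range from 0 to 8.

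The 5 segments marked in the most lists were Ighv1 and Ighv8 segments, which lie from the middle of the array to its far end. Ighv8-8 was marked in 9 lists, being fully covered in the CC, 6 hpa, 14 hpa and morula lists, over 69.5% in 2-cell, 69.1% in 4-cell and 59.6% in 8-cell embryos, 63.4% in ICM, 59.6% in TE and 0 in PN5. Ighv1-26 was covered over at least 99.8% of its bases in CC and in every SCNT list through the morula, over 29.3% in ICM, 0 in TE and 67.5% in PN5. It was the only one of the 5 segments marked in the most lists that was marked in PN5. Ighv8-11 was covered over at least 89.8% from CC through the morula and over 100% in TE, and Ighv1-34 over at least 80.5% from CC through the morula and over 100% in ICM. Ighv1-7 was covered over 62.2 to 100% from CC through the morula, over 83.7% in TE and 0 in ICM and PN5. With peaks of at least 3-fold enrichment Ighv8-8 was marked in 5 lists and Ighv1-34 in 3. Ighv1-26, Ighv8-11 and Ighv1-7 were then marked in 6 lists each.

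In all, 12 Ighv segments were marked in CC and in each SCNT list through the morula: Ighv14-2, Ighv1-5, Ighv1-7, Ighv1-26, Ighv1-31, Ighv1-34, Ighv1-39, Ighv8-5, Ighv1-55, Ighv8-8, Ighv1-59 and Ighv8-11. At the other extreme 41 were marked in CC and in no SCNT list from the 2-cell stage on, 8 were marked in CC alone, and 13 in no list. These 13 were 6 Ighv5 and 3 Ighv2 segments, Ighv6-5, Ighv1-16, Ighv1-49 and Ighv1-84. Some of them held peak bases below the 50% cut: Ighv2-5 (40.6% at 6 hpa), Ighv5-9-1 (36.9% at 6 hpa) and Ighv1-84. These patterns are those of the deposited lists, and how many segments kept them under stricter settings was not computed. How often all genes showed these patterns was not computed, so the counts do not tell whether they are particular to Ighv.

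Segments known by name from B cell work behaved differently from one another. Ighv5-2 (VH81X), the segment nearest to D and J and the one most used in early B cell development, was fully covered in CC, in 2-cell embryos and in morulae, over 62.8% at 6 hpa and in no other list. Ighv11-2, which B-1 cells use for antibodies to phosphatidylcholine, was fully covered in CC and at 6 and 14 hpa, over 93.9% in 2-cell embryos and by no peak afterwards. Ighv1-72 (VH186.2), the segment of the mouse response to the hapten NP, was fully covered in CC, over 67.4% at 6 hpa and 33.7% in 8-cell embryos and in no other list. Only 27.2% of the 75-base words of Ighv1-72 occur once in the genome, against a median of 95.3% over Ighv segments, and the part of read placement in its values was not tested. Ighv1-85, the outermost segment on the far side, had no peak in CC, 32.3% at 6 hpa, 100% at 14 hpa, 82.7% in 2-cell and 98.6% in 8-cell embryos and 63.8% in morulae.

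The comparison of CC with 6 hpa asks what happened to the donor cell pattern soon after transfer and activation. Coverage of the Ighv span was lower at 6 hpa, by -41.8 percentage points (interval -44.3 to -39.3), while 72 segments were marked against 91. Of the 91 segments marked in CC, 68 were marked at 6 hpa (74.7%), beside 50.5% of all genes marked in CC and 60.1% of short ones. Of the 22 unmarked in CC, 4 were marked at 6 hpa (18.2%), beside 3.73% of all genes unmarked in CC. The share among short genes unmarked in CC was not computed. Those 4 were Ighv2-3 (86.5% covered), Ighv2-4 (86.4%), Ighv1-82 (62.6%) and Ighv1-62-1, and the first 3 had no peak in any other list. With peaks of at least 3-fold enrichment these 3 were marked in no list. Ighv2-3 was marked in none at −log10 q of at least 2 or at equal list length either. No peak base at 6 hpa was found in 14 of the 91, among them Ighv8-2, Ighv3-6 and Ighv1-62-2. Ighv8-2 was fully covered in the CC, 14 hpa, 2-cell and PN5 lists, with 0 at 6 hpa. Ighv3-6 was fully covered in CC and in 4-cell embryos, over 71.9% in morulae and 74.7% in ICM, with 0 at 6 hpa, 14 hpa and the 2-cell stage. Ighv1-62-2, with 20.9% of its words single-copy, had 100% in CC, 0 at 6 hpa and 93.9% at 14 hpa.

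The CC list was longer than the 6 hpa list (255 against 157 Mb). With all lists cut to the same covered length by dropping the weakest peaks, coverage of the span differed by -25.7 points and the marked segments were 63 at 6 hpa and 69 in CC. With peaks of at least 3-fold enrichment they were 39 and 49. For Igkv, 1 segment was marked in both lists (Igkv9-124), the other 99 had no peak base in either, and coverage of the span at 6 hpa differed by -3.05 points from that in CC (-4.27 to -1.83). At equal list length the Igkv span was 0.709 points higher at 6 hpa.

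Peaks at 6 hpa were narrower than in CC and covered the segments more than the bases between them. In CC the widest peak of the span was 115859 bases (chr12:114815179-114931037), touched Ighv1-31, Ighv1-34, Ighv1-36, Ighv1-37 and Ighv1-39, and 68 peaks of at least 5 kb made up 57.5% of the peak length. At 6 hpa 5 such peaks made up 9.66%, and the median peak that touched a segment was 660 bases wide, against 4395 bases in CC, 1106 at 14 hpa and 486 in 2-cell embryos. Their median enrichment over input was 2.997-fold in CC, 3.06-fold at 6 hpa and 2.63-fold at 14 hpa. Segment bases were covered over 57.6% at 6 hpa and the other bases of the span over 19.05%, a difference of 38.5 points (24.9 to 52.2). The same difference was 17.6 points in CC, 20.4 at 14 hpa, 17.8 in 2-cell, 12.8 in 4-cell and 11.2 in 8-cell embryos. In the morula (10.2), ICM (-1.84), TE (-2.95) and PN5 (-2.20) its interval included 0. The 6 hpa interval excluded 0 with a stricter q, with lists of equal length and with peaks of at least 3-fold enrichment as well (20.0 to 32.1 points). The other lists did not have this under all 3 settings. With peaks of at least 3-fold enrichment the difference was 8.38 points in CC (-5.28 to 22.0) and 4.14 in 2-cell embryos (-4.17 to 12.5), and at equal length it was 5.32 at 14 hpa (-6.02 to 16.7). For 4-cell and 8-cell embryos the interval included 0 under each of the 3. Segment bases made up 6.12% of all Ighv peak bases at 6 hpa and 1.76% in ICM, beside 2.11% of the span.

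Aligned on segment centres, mean coverage at 6 hpa was 57.7% in the 250 bases after the centre, 4.90% between 750 and 1000 bases upstream and 18.5% at 5 kb upstream. The values at the same places were 80.3%, 52.7% and 57.3% in CC, 29.6%, 2.65% and 10.5% in 2-cell embryos, and 7.61%, 4.28% and 13.7% in ICM. Base composition differed between these places in the same direction and was 47.4% GC in the bin after the centre and 33.3% in the upstream bin. In 1-kb windows of 45 to 50% GC, 47.5% of the 40 that touched a V gene or pseudogene were marked at 6 hpa and 43.2% of the 139 that touched none, and in the class of 40 to 45% GC the values were 36.7% of 139 and 26.1% of 625. At the 2-cell stage, where the median segment peak was shorter than the 500 bases that mark a window, they were 15.0% and 33.1%, and 11.5% and 11.7%. The part of base composition in the coverage of segments was not tested beyond these classes.

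**Figure D5:**
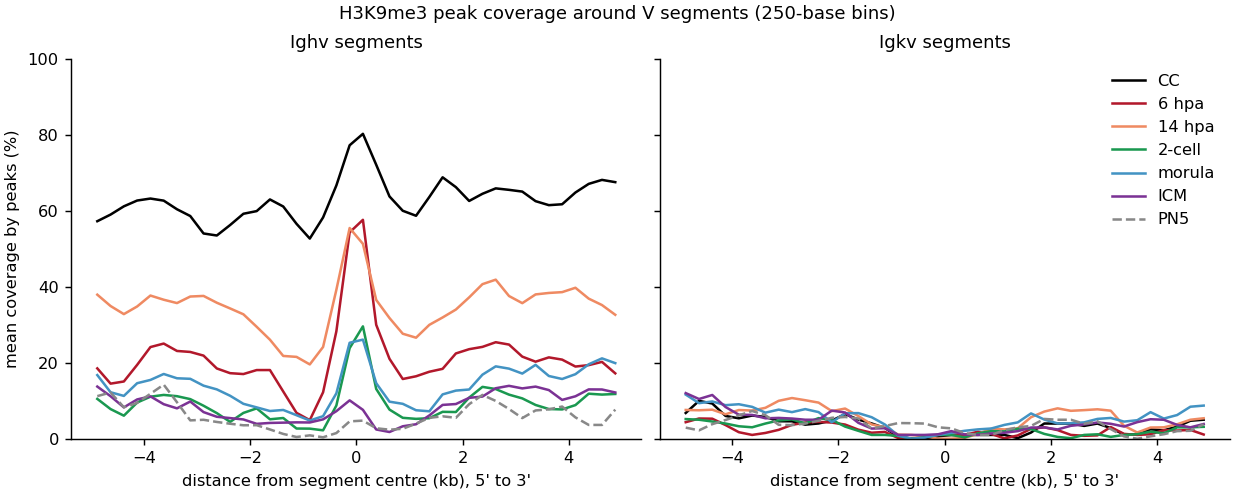
Mean coverage by peaks (y axis, %) in 250-base bins within 5 kb of the centre of each segment (x axis in kb, along the direction of transcription) for Ighv (left) and Igkv (right) in 7 lists. At 6 hpa the Ighv curve stands at 57.7% just after the centre and at 4.90% in the bin 750 to 1000 bases upstream; the Igkv curves stay near 0 at the centre.

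At 14 hpa more of the span was covered than at 6 hpa in the deposited lists, and fewer segments were marked. The 14 hpa list was also the longer one (237 against 157 Mb). At equal list length the order of the spans turned, with 16.2% at 14 hpa and 18.5% at 6 hpa. With peaks of at least 3-fold enrichment it turned too (8.41% and 11.5%). With −log10 q of at least 2 it did not (30.5% and 17.1%). Marked segments were 25 at 14 hpa and 63 at 6 hpa at equal length, and 15 and 39 at 3-fold. Coverage of the Ighv span in the deposited lists was 34.0% at 14 hpa and 19.9% at 6 hpa. There 65 and 72 segments were marked, 46 of them the same. Of the segments marked in CC and at 14 hpa, 14 were unmarked at 6 hpa, including Ighv16-1, Ighv15-2, Ighv13-2, Ighv6-4 and Ighv8-6. The 46 shared by 6 and 14 hpa were also marked in CC. Of the 91 segments marked in CC, 60 were marked at 14 hpa (65.9%, beside 62.7% of all genes marked in CC). In 2-cell embryos 31 were marked (34.1%, beside 35.5%) and in morulae 30 (33.0%, beside 34.3%). These shares were near those of all genes. Of the short genes marked in CC, 65.3% were marked at 14 hpa, 43.3% in 2-cell embryos and 36.004% in morulae. The segments' 2-cell share thus lay below that of short genes, the morula share slightly below and the 14 hpa share close to it.

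The comparison of 14 hpa with PN5 sets SCNT beside fertilized 1-cell embryos. Marked Ighv segments numbered 65 and 7, and the span was covered over 34.0% and 6.66%, a difference of 27.3 points (25.2 to 29.5). Of the 65, 6 were marked in PN5 (9.23% of the 14 hpa and 85.7% of the PN5 segments), beside 23.1% of all genes marked at 14 hpa: Ighv8-2, Ighv1-19, Ighv1-23, Ighv1-26, Ighv1-52 and Ighv1-75. The seventh PN5 segment was Ighv9-4, and all 7 were also marked in CC. Among the segments with the widest difference were Ighv8-11, Ighv1-34, Ighv8-8, Ighv1-59 and Ighv1-7, each fully covered at 14 hpa and by no peak in PN5. The 14 hpa list covered 237 Mb and the PN5 list 134 Mb. At equal list length 25 and 7 segments were marked and the span differed by 9.55 points, and with peaks of at least 3-fold enrichment 15 and 3 were marked and the span differed by 6.51 points. For Igkv, 0 segments were marked at 14 hpa and 3 in PN5, and the span was covered 4.95 points more at 14 hpa (3.58 to 6.33). The Igkv segments with the widest difference were Igkv3-12, Igkv3-4 and Igkv3-2, followed by Igkv1-35 (15.7% in PN5) and Igkv3-3, all of them without a peak at 14 hpa.

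In the deposited lists ICM and TE, the blastocyst lineages, had similar numbers of marked segments and few of them in common. The order of the Ighv counts, 10 in ICM and 11 in TE, turned under several alternative settings. At equal list length 5 and 4 Ighv segments were marked, and with peaks of at least 3-fold enrichment 5 and 1. Peaks that touched Ighv segments had a median enrichment of 2.63-fold in ICM and 2.68-fold in TE. The medians of the whole lists were higher, 3.016-fold and 3.005-fold. The Ighv span differed by 0.287 points (-1.45 to 2.03) and the Igkv span by 0.849 points (-0.567 to 2.26), both intervals including 0. Of the 10 Ighv segments marked in ICM and the 11 in TE, 2 were shared, Ighv1-36 and Ighv8-8, which is 20.0% of the ICM segments and 18.2% of the TE segments, beside 65.3% of all genes marked in ICM. How many were shared under stricter settings was not computed, so these calls do not settle whether the lineages differ. Ighv1-34 and Ighv1-77 were fully covered in ICM and Ighv10-3 over 99.8%, all 3 with no peak in TE, and Ighv1-77 had no peak in CC and 82.0% at 14 hpa. The ICM peaks on Ighv1-34, Ighv1-77 and Ighv10-3 had an enrichment of 2.47-fold, 2.58-fold and 4.26-fold. In TE, the marked segments absent from ICM were Ighv14-3, Ighv9-3, Ighv1-5, Ighv1-7, Ighv1-18, Ighv1-58, Ighv8-11, Ighv1-66 and Ighv8-13. Of the 91 segments marked in CC, 9 were marked in ICM (9.89%, beside 29.1% of all genes and 27.9% of short genes marked in CC) and 11 in TE (12.1%, beside 26.8% and 28.6%). For Igkv, Igkv3-3 was marked in both lineages, Igkv1-35 in ICM only, and Igkv1-99 was covered over 14.2% in TE and by no peak in ICM.

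The V pseudogenes, which lie between the segments, were also marked often at Ighv and seldom at Igkv. Of 70 Ighv pseudogenes 52 were marked in CC, 30 at 6 hpa and 33 at 14 hpa, 17 in 2-cell embryos, 24 in morulae, 7 in ICM, 15 in TE and 4 in PN5, and of 60 Igkv pseudogenes between 0 and 5 in any list. Among 28 other genes annotated inside the Ighv span, 19 of them processed pseudogenes, 15 were marked in CC, 10 at 6 and 14 hpa, 4 in 2-cell embryos and 1 in PN5, and among 39 inside the Igkv span 2 to 6 in any list. The 4 genes of type IG_LV_gene had 2 marked in CC, 3 in 8-cell embryos and 0 to 2 elsewhere.

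The D and constant genes of the heavy chain locus had their highest counts in other lists than its V segments. The 19 D genes, short pieces of 10 to 29 bases of which several can lie in 1 peak, had 2 marked in CC and at 6 hpa, 4 at 14 hpa, 8 in 2-cell, 10 in 4-cell and 12 in 8-cell embryos and in morulae, 8 in ICM, 4 in TE and 0 in PN5. The 4 J genes had 3 marked in CC, in 8-cell embryos and in morulae and 0 or 1 in the other lists. Of the 8 constant genes none was marked in CC, 5 were in 4-cell embryos and 4 in 8-cell embryos. Ighg1, which encodes an IgG heavy chain constant region, had no peak base in CC and was covered over 78.0% in 4-cell embryos, 46.8% in 8-cell embryos, 60.2% in morulae, 31.5% in ICM and 3.01% in TE. Ighg3, of the same class, had the higher value in TE (70.7%, against 10.2% in ICM). The 5 Igk J genes had no peak base in any list, and Igkc, the kappa constant gene, was covered over 79.9% in 8-cell embryos, 28.8% in PN5 and in no other list.

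Other antigen receptor loci and the B cell genes served as comparison. Of 108 Trav segments, the V genes of the T cell receptor alpha locus, 17 were marked in CC, 32 at 6 hpa and 21 at 14 hpa, 16 in 2-cell embryos, 22 in 4-cell embryos, 25 in 8-cell embryos, 16 in morulae, 3 in ICM, 1 in TE and 13 in PN5, so CC did not have the highest count there. Of 22 Trbv segments 1 was marked at 6 hpa and 0 elsewhere, of 5 Trdv segments 1 in 4-cell embryos, the single Trgv gene in no list, and of 3 Iglv segments (lambda chain) Iglv1 in 2-cell embryos (69.2%). None of 11 genes of recombination and B cell development (Rag1, Rag2, Dntt, Pax5, Ebf1, Ikzf1, Foxo1, Cd79a, Cd79b, Vpreb1 and Igll1) was marked in any list. The highest coverage among them was that of Dntt, the polymerase that adds bases at the joints, with 5.93% in CC and 27.6% in 8-cell embryos.

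Away from the segments, a few stretches of the Ighv span held the widest peaks in most lists. They were picked after the peaks were seen. One of 8902 bases (chr12:114632676-114641577), 1564 bases from the nearest V gene or pseudogene (Ighv1-13), held 1 of the 3 widest peaks in all 7 lists from the 2-cell stage to TE and PN5 and was covered over 100% in CC, 63.5% at 6 hpa, 81.6% in 8-cell embryos, 91.9% in ICM and 71.2% in PN5. It was 90.9% soft-masked repeat, and 22.8% of its 75-base words were single-copy. A stretch of 9878 bases (chr12:115557133-115567010), 138 bases from Ighv8-11, was covered over 92.4% in CC, 44.3% at 6 hpa, 97.1% in ICM and 52.4% in PN5, and 77.8% of it was soft-masked. Over the whole Ighv span, soft-masked repeats and the other bases were covered alike in CC (61.0% and 62.2%) and at 6 hpa (19.9% and 19.8%), and unequally in ICM (14.8% and 7.43%) and PN5 (9.10% and 4.61%). In the Igkv span repeats had more in each list, 13.3% against 2.39% in CC and 15.3% against 3.19% in ICM.

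Sequence features were set beside the mark within Ighv. The 91 segments with the octamer in their promoter had 77 marked in CC (84.6%), 63 at 6 hpa (69.2%) and 27 in 2-cell embryos (29.7%), and the 22 without it had 14 (63.6%), 9 (40.9%) and 6 (27.3%). The median position of the latter was 31.5 from the J side, against 63 for the former, so the octamer moved with position. Segments with the heptamer CACAGTG (81) had 64 marked in CC (79.0%) and 50 at 14 hpa (61.7%), and the other 32 had 27 (84.4%) and 15 (46.9%). Of the 57 segments at or above the median GC of 48.6%, 44 were marked in CC (77.2%), 41 at 6 hpa (71.9%) and 16 in 4-cell embryos (28.1%), and of the 56 below it 47 (83.9%), 31 (55.4%) and 8 (14.3%). Few segments had near-identical copies at a length of 75 bases: 3 Ighv segments (Ighv1-62-2, Ighv1-71 and Ighv1-72) and 1 Igkv segment (Igkv8-16) had under 50% single-copy words.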

How the data were processed

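The authors trimmed reads with Cutadapt (version 1.16 by the submitters' processing notes), aligned them to mm10 with BWA, merged the libraries of a group, removed duplicates, drew the same number of reads per group and called broad peaks over input with MACS2. The threshold of the caller and other versions were not given in the sources used here. The 10 deposited lists hold, for each peak, a fold enrichment (a ratio over input) and a −log10 q value that the authors' caller gave. They hold no reads per library, and at this depth a segment without a peak was not shown to lack the mark. Reads of the DBA/2 haplotype of B6D2F1 were aligned to the C57BL/6 reference.

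Peaks were merged within a list, and the percent of each segment and span covered was computed in Python 3.11.15 (numpy 2.4.6, pandas 2.3.3), with functions tested on simulated peaks. Intervals for spans counted each 1 kb as 1 unit. GC, soft-masking, 75-base words, signals and promoters came from GRCm38.p6, and the comparison promoters from RefSeq. None of the 213 members had an entry in that promoter table. Members, gene lists and comparisons were chosen with earlier results of these data known. Named segments were, per locus, the 5 marked in the most lists, the 5 with the widest difference between 14 hpa and PN5, the 3 largest falls and rises from CC to 6 hpa, the 3 with the widest difference between ICM and TE, the outermost segments, and Ighv5-2, Ighv11-2 and Ighv1-72, with ties broken by mean coverage. For Igkv 99 segments tied at no difference between CC and 6 hpa. Other segments were named after their values were seen. Alternatives changed the peak threshold, fold, list length, overlap rule, segment and span borders and repeated sequence. 1 gene of the list for recombination and B cell development is not reported here.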

Additional observations from a re-analysis of the deposited data

How the results depend on the processing

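No paired analysis was possible because each list came from merged libraries, which also means that leaving out 1 replicate could not be tried. Each alternative changed 1 choice. Of 78 alternative values for the 12 comparisons 46 stayed, 22 moved and 10 turned. Of the alternative values for single lists, named segments and segment bases against other span bases, 131 stayed and 103 moved. A count turned where its sign changed, and a span difference only where its main interval also left out 0. The ICM against TE spans could thus change sign and be counted as stayed. The Ighv one did at equal length (-0.707), at fold at least 3 (-0.106) and outside soft-masked repeats (-0.0612). The Igkv one did outside repeats (-0.425).

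With lists of equal length, Ighv span coverage differed by -25.7 points between 6 hpa and CC and by 9.55 between 14 hpa and PN5, the Ighv count by -6 and 18, the Igkv span by 0.709 (turned) and 1.54, the Igkv count by 1 between 6 hpa and CC, and the Ighv count by 1 between ICM and TE (turned). With peaks of fold at least 3 the Ighv span differed by -22.3 and 6.51, the Ighv count by -10 and 12, the Igkv span by -0.194 between 6 hpa and CC, the Igkv count by 1 and 0, and the Ighv count by 4 between ICM and TE (turned). With −log10 q of at least 2 the Ighv count differed by -31 between 6 hpa and CC and by 3 between ICM and TE (turned), and the Igkv count by -1 between 14 hpa and PN5.

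Counting segments covered over at least 10%, the Ighv count differed by -10 between 6 hpa and CC, and the ICM against TE counts turned (2 for Ighv, -1 for Igkv). At 90% these were -44, 3 (turned) and 0, with 1 for Igkv between 6 hpa and CC. With 500 bases added on either side the Ighv count differed by -50 and, between ICM and TE, by 3 (turned), and the Igkv count by -1 between 14 hpa and PN5. By the overlap rule of the study the Ighv count differed by 2 between ICM and TE (turned). Outside soft-masked repeats the Igkv span differed by 0.143 between 6 hpa and CC (turned) and by 0.971 between 14 hpa and PN5. The cause of these changes was not tested. The lower Ighv coverage at 6 hpa than in CC and in PN5 than at 14 hpa held under each alternative run. Of the alternatives chosen after the data were seen, the excess of segment bases over other span bases at 6 hpa was 20.0 to 32.1 points, and in the other lists its interval included 0 under at least 1 setting.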
